A study of Mus musculus with 12 samples.

Results

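The transcriptome of untreated mouse lung was described from the 3 control libraries, of 12 libraries in the series, taken by their group label (A0, given no treatment). Gene levels were ranked, markers of lung cells were set against one another, and the spread between the 3 libraries was measured. The other 9 libraries form 3 groups of 3, given alginate oligosaccharides (AOS) at 10 mg/kg for 5 weeks, busulfan at 40 mg/kg once, or busulfan and then AOS, and none of them entered any value below. All groups carry the strain label "IRC mouse" and total RNA was the input. The labels give no allele, age or sex, and do not say whether the 3 libraries came from separate animals, so the spread given here may be partly technical.

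Gas exchange takes place in alveoli lined by flat alveolar type 1 cells and by cuboidal type 2 cells, which make surfactant, the lipid and protein film that keeps alveoli open. The conducting airways are lined by club cells, which secrete proteins and metabolise inhaled chemicals, and by ciliated cells, which move mucus. Beneath the epithelium lie the capillary bed, fibroblasts that lay down collagen and elastin, and resident macrophages and lymphocytes. Bulk RNA adds all of these together, so fewer cells of a type and less RNA per cell cannot be told apart.

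Levels are given as FPKM, fragments counted per unit of gene length and of sequencing depth, a scale on which genes can be set against each other. Where 3 values follow one another they are FPKM of untreated libraries 1, 2 and 3, in that order. A gene was counted as detected at a mean FPKM of at least 1, which 13851 of 19726 genes reached (70.2%). The libraries held 16209221, 16228425 and 16763075 estimated counts, and 13661, 13839 and 13749 genes at 1 FPKM or more, so depth was close to equal. The label for tissue is "Cells", but titles and protocol name lung. Lung-defining genes were high in all 3 libraries, among them the surfactant gene Sftpc, the type 1 cell receptor Ager and the lung transcription factor Nkx2-1, a homeobox factor at 93.1, 93.5 and 97.5 FPKM. Y-linked transcripts were present in each library, Eif2s3y at 46.6, 46.6 and 42.7 FPKM and Ddx3y at 26.2, 28.3 and 27.4 FPKM.

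Each library stood apart from the other 2 for a different set of genes. Library 2 was higher for all 21 skeletal muscle genes (list median 0.81, 130.4 and 11.1 FPKM) and library 3 was higher for 17 of 21 liver genes (list median 2.38, 4.21 and 31.3 FPKM). Library 1 was higher for a set of airway mucosal secretory genes. Of 16 heart muscle genes, 10 were lower in library 3, 3 were higher in library 1 and 3 were higher in library 2. Here and below, "higher" or "lower" in 1 library means at least 2-fold beyond the nearer of the other 2 on the FPKM + 0.1 scale, a description of single libraries and not a test. The shares of all detected genes that met this were 0.448% higher and 0.845% lower in library 1, 1.49% higher and 0.282% lower in library 2, and 1.25% higher and 0.946% lower in library 3. The lists and their members were chosen with earlier results of these data known, so the counts within lists are not independent of the data. Whether tissue beside the lung was taken with it was not tested.

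The most abundant transcript by a wide margin was Scgb1a1, the club cell secretory protein of the airways, encoded at chr19:9083642-9087956 (GRCm38). It stood at 123423, 121764 and 110119 FPKM, 118435 ± 7249.97 (SD, n = 3), and was first in each library. It held 20.9%, 19.9% and 19.5% of all FPKM, but 4.11%, 4.03% and 3.61% of all counts, since its transcript is short. Per unit length it was 6.09, 6.83 and 7.16 times as high as Sftpc in libraries 1, 2 and 3.

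Alpha-globin Hba-a1, a red cell transcript, followed by mean, with 13576, 27204 and 18714 FPKM. Sftpc, surfactant protein C, encoded at chr14:70520941-70524081 and made by type 2 cells, came next with 20270.5, 17822 and 15380.1 FPKM. The ranges of both overlapped, and Sftpc was above Hba-a1 in library 1 only. Next by mean was beta-globin Hbb-b1, at 6988, 15333 and 9610.2 FPKM, below Sftpc in each library. After these 4 the levels dropped, and 27 genes in all had a mean of at least 1000 FPKM.

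That group mixed lung products with genes that most cells use. Tmsb4x, which encodes the actin-binding thymosin beta 4, was measured at 3708, 3778 and 2946 FPKM and Lyz2, a lysozyme of type 2 cells and macrophages, at 3730.4, 3771 and 2622 FPKM. Cbr2, a carbonyl reductase abundant in mouse lung, stood at 2805, 2489.7 and 2251 FPKM. The translation factor Eef1a1, the growth-related Tpt1 and the ferritin heavy chain Fth1 followed, with means of 2367 ± 59.4, 2274 ± 179 and 2259.9 ± 164 FPKM (SD, n = 3). Their ranges overlapped, so their order by mean was not larger than their spread.

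Cyp2f2, a club cell cytochrome P450, Sftpb, surfactant protein B, and Scgb3a2, a second airway secretoglobin, stood at ranks 13, 14 and 15. Inmt, a methyltransferase high in lung fibroblasts, was at rank 16 with 1635, 1430.4 and 1519 FPKM. Ager, the receptor for advanced glycation end products, was at rank 19 with 1393, 1331 and 1252 FPKM, and Mgp, matrix Gla protein, followed at 1344, 1048 and 1267 FPKM. The top 50 also held 12 ribosomal protein genes or copies, 4 haemoglobin genes and 3 entries known by a provider or locus number alone.

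Other genes of the top 50 were of several kinds. Ftl1, the ferritin light chain, was found at 2038, 1768 and 1961 FPKM, below Fth1 without overlap. Lyz1, the partner lysozyme of Lyz2 at a neighbouring locus, lay at 1615, 1512 and 1082 FPKM, and the Lyz2 to Lyz1 ratio was 2.31, 2.49 and 2.42. Reads of this near-identical pair could be split between them. Myl6, the light chain of non-muscle myosin, stood at 1027, 1020.2 and 857 FPKM and Ppia, cyclophilin A, at 1051, 959 and 885 FPKM. The ubiquitin gene Ubb was measured at 901, 858 and 879 FPKM, the membrane protein Itm2b at 894, 866 and 852 FPKM and Ptma, prothymosin alpha, at 849.97, 897 and 841 FPKM. Each of these 3 varied less between libraries than the haemoglobins did. Cst3, the secreted protease inhibitor cystatin C, stood at 814, 936 and 839 FPKM, and Sparc, a matrix protein that binds collagen, at 714, 764 and 762 FPKM. Library 1 was the lowest for both.

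Below the top the levels fell off steeply. Of the 13851 detected genes 7348 had a mean of at least 10 FPKM and 654 of at least 100, and the median was 10.95 FPKM. The 1000 highest genes held 67.6 ± 0.978% of FPKM (SD, n = 3) and 47.3 ± 0.150% of counts. At the other end, 909 genes were listed at 0 in all 3 libraries.

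**Figure D1:**
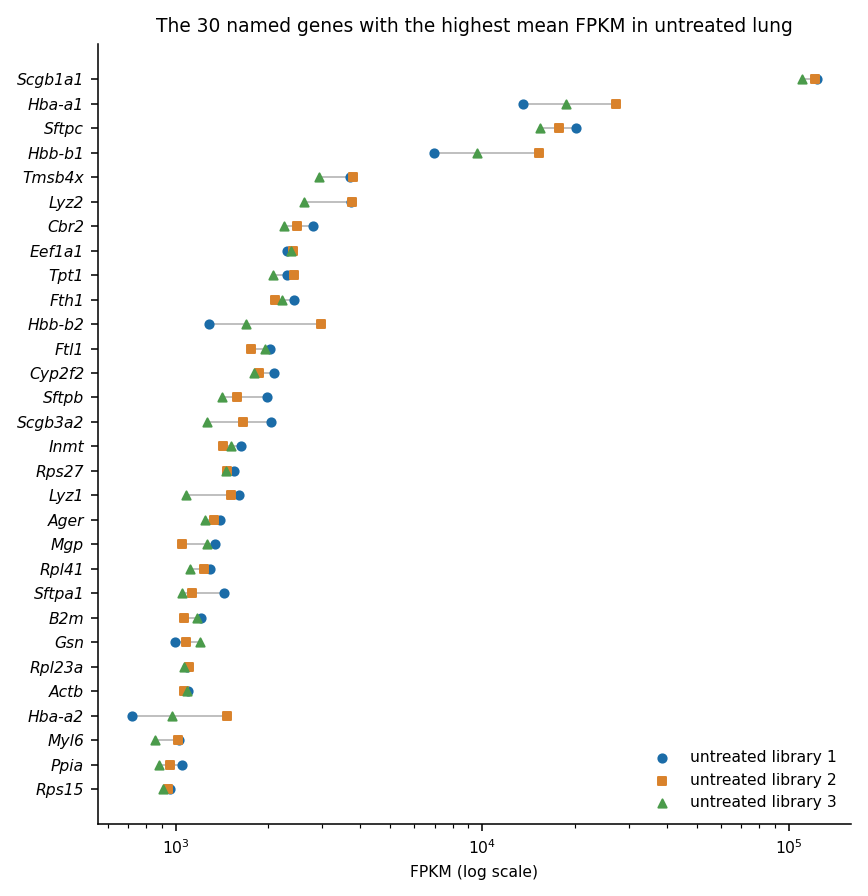
FPKM on a log axis of the 30 genes with the highest mean FPKM among those with a gene name, one symbol per untreated library and a grey line from lowest to highest. Scgb1a1 lies between 110119 and 123423 FPKM, far to the right of all others, and the 4 haemoglobin genes have the widest lines, with library 2 highest and library 1 lowest in each.

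The top of the ranking was shared between libraries. Of the 50 highest genes of each library, 42 were common to all 3, and 9 of the 10 highest were. The top 50 held 38.3%, 39.9% and 37.0% of all FPKM, 38.4 ± 1.42% (SD, n = 3), against 14.9 ± 0.573% of counts. Ranked by CPM, counts scaled to equal library totals with no division by length, 23 of the 50 stayed in the top 50 and 6 of the 10 in the top 10. The list leaned to short genes, as the median length used for the top 50 was 677 bases, against 1551 bases over the top 1000. By counts alone the first 5 were Scgb1a1, Sftpc, Hba-a1, Hbb-b1 and Lyz2, while Tmsb4x, at rank 5 by FPKM, was at rank 18.

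The length behind each FPKM, recovered from counts and totals, was shorter than the annotated transcript by a median of 145 bases over 544 genes with a single GENCODE transcript. That raises short transcripts, such as Scgb1a1, whose implied length was 331 bases against 476 annotated. Some entries near the top carried lengths far from their annotation: Pdzd8, an endoplasmic reticulum protein, was listed at 641, 753 and 603 FPKM over 499.8 bases, while its longest transcript has 5982, so its rank of 55 is uncertain. The same held for Naaladl2, with 415 bases against 9330.

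Genes with near-identical copies were also uncertain, because counting could split their reads. Globins are among them, with Hba-a1 at a mean of 19831 FPKM and its copy Hba-a2 at 1057 FPKM. The ranks of Hba-a1 and Hbb-b1, and the ratio between them given below, therefore depend on how reads were shared out. Rpl34, a ribosomal protein gene, was listed at 18.3, 16.2 and 15.9 FPKM, while its processed copy Rpl34-ps1 was found at 746, 876 and 664 FPKM. Rps18, which every cell uses, was listed at 0, 0.65 and 0 FPKM. Gapdh, a glycolytic enzyme with many processed copies, was listed at 11.04, 11.7 and 12.7 FPKM, at rank 6585. Among other common reference genes Actb, cytoplasmic actin, lay at 1099, 1067 and 1089 FPKM, Hprt, of purine salvage, at 61.2, 62.9 and 56.5 FPKM and Tbp, the TATA-binding protein, at 14.4, 14.8 and 14.1 FPKM.

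Core promoter sequence was set beside these levels, with the RefSeq promoter windows (GRCm38.p6, 250 bases before to 50 after the start), which matched 14624 genes by symbol or ID. The motif searched was TATAAA, starting between 40 and 21 bases before the annotated start on the gene's strand. It was present in 2.17% of all matched genes, 1.41% of those detected, and 2 of 35 (5.71%) matched genes of the top 50. In the window at large and on either strand the shares were 9.68%, 7.51% and 17.1%. Genes listed at 0 in all 3 libraries held the motif about as often as the top 50. Their shares were 5.48% (33 of 602) between 40 and 21 bases before the start and 18.4% at large. The motif was therefore not particular to the highest genes. The median number of CG dinucleotides in the 300 bases was 17 in all matched genes, 20 in those detected and 14 in the top 50.

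The stretches below end at the base before an annotated start, which for Ager lies inside the gene, annotated from chr17:34597460. They are shown because they hold the motif, or lack it, in genes on which the results turn: surfactant protein A (Sftpa1, chr14:41131668-41131787, plus strand), the type 1 cell gene Ager (chr17:34597730-34597849, plus strand), a ribosomal gene (Rps27, chr3:90213649-90213768, minus strand), and 4 airway secretory genes that differed most between libraries, Bpifa1 (chr2:154142760-154142879, plus strand), Reg3g (chr6:78468875-78468994, minus strand), Scgb3a1 (chr11:49663475-49663594, plus strand) and Bpifb1 (chr2:154190698-154190817, plus strand). Capitals mark TATAAA.
Sftpa1: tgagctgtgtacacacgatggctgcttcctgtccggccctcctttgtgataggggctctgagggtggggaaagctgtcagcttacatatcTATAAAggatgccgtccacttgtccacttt
Ager: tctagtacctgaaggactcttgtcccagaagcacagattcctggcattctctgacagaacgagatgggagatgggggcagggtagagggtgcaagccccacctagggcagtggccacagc
Rps27: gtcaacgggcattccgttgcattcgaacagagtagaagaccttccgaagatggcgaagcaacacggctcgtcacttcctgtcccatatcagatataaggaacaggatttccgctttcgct
Bpifa1: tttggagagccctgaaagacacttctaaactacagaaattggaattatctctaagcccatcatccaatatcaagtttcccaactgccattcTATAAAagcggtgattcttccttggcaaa
Reg3g: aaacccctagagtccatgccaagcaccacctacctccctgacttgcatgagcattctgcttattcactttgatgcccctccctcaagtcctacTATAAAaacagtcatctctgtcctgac
Scgb3a1: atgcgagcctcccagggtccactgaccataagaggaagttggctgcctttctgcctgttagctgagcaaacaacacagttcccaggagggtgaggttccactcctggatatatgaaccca
Bpifb1: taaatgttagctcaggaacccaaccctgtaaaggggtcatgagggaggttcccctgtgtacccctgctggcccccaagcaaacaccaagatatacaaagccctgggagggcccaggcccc
The motif began 30 bases before the start in Sftpa1, 29 in Bpifa1 and 27 in Reg3g, and these letters were not found there in the other 4. Rps27 held 22 CG in its 300 bases, against 5 in Sftpa1, 4 in Ager, 3 in Bpifa1, Scgb3a1 and Bpifb1 and 1 in Reg3g. Of the lists matched, 4 of 14 secretory cell genes and 0 of 57 ribosomal protein genes held the motif in that position. Lists of low level here varied. Squamous epithelium held the motif there in 4 of 8 genes and stomach, pancreas and intestine in 5 of 11. Thymus and cartilage, also low, held it in 0 of 9 each. The type 1 cell list, high in level, held it in 0 of 15. A match is a run of letters, not a measured site.

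Of the 28 lung cell type lists, the type 2 cell, type 1 cell, pan-endothelial and general capillary lists had the highest median FPKM, and the basal, neuroendocrine, mast cell, type 2 innate lymphoid and goblet lists the lowest. Type 2 cell genes had a list median of 222, 198 and 169.8 FPKM and type 1 cell genes 199.9, 168 and 158 FPKM. The pan-endothelial list stood at 171, 146 and 162 FPKM, overlapping both. Of 378 pairs of lists, 350 kept 1 order of medians in all 3 libraries. Medians of lists measure chosen markers and not shares of cells.

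**Figure D2:**
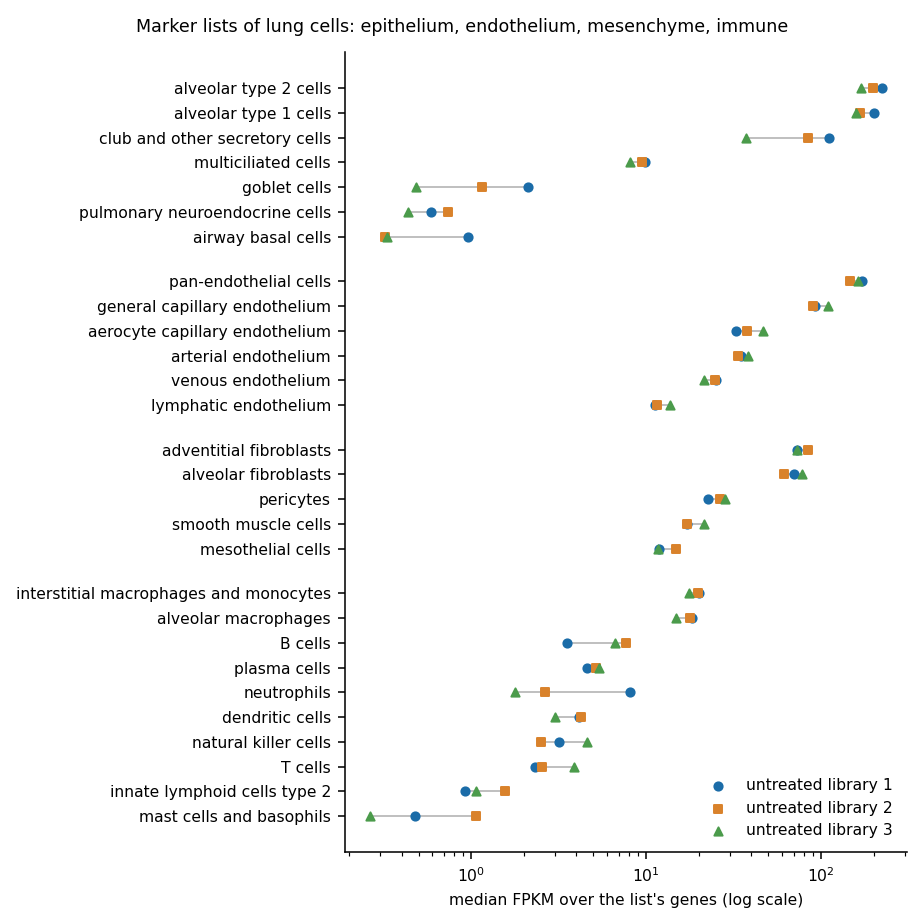
Median FPKM over the genes of each of 28 lung cell type lists, on a log axis, one symbol per untreated library, grouped as epithelium, endothelium, mesenchyme and immune cells and ordered by mean. Most lists have symbols that nearly coincide, while the secretory, goblet, basal, neutrophil, B cell and mast cell lists spread widely.

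Surfactant proteins ranked in the order Sftpc, Sftpb, Sftpa1, Sftpd in each library. The hydrophobic proteins C and B spread the lipid film, and the collectins A and D bind microbes. Sftpb, encoded at chr6:72304610-72314373, stood at 1987, 1589 and 1422 FPKM and Sftpa1 at 1439, 1132 and 1046 FPKM. These neighbours overlapped between libraries, whereas Sftpd, at 346, 325 and 246 FPKM, and the small surfactant-associated Sfta2, at 148, 117 and 104 FPKM, lay clear of them and of each other. All 5 surfactant genes were highest in library 1 and lowest in library 3, by less than 2-fold. The ratio of Sftpc to Sftpb FPKM was 10.2, 11.2 and 10.8, a CV of 4.77%.

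Of 20 type 2 cell genes, 19 were detected and 15 had a mean of at least 100 FPKM, and none was set apart by 1 library. Cxcl15, a lung-restricted chemokine, was measured at 620.2, 535 and 419 FPKM, and Slc34a2, the phosphate transporter that recovers phosphate from surfactant, at 439, 393 and 359.8 FPKM. Lamp3, of the lamellar bodies that store surfactant, stood at 248, 213 and 174 FPKM, and Napsa, a protease that trims surfactant precursors, at 196, 182 and 165 FPKM. Library 3 was the lowest for each of these 4. Hc, complement C5, was the only gene of the list that ran the other way, at 74.6, 108 and 154 FPKM, lowest in library 1.

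The lipid side of surfactant was led by Scd1, a desaturase, at 484, 460.3 and 344 FPKM, Slc34a2 and Lamp3. Lpcat1, which makes the dipalmitoyl lipid of surfactant, was found at 156, 140.4 and 119.8 FPKM, and Abca3, which pumps lipid into lamellar bodies, at 106, 92.2 and 89.7 FPKM. Fatty acid synthase Fasn (47.1, 33.7 and 35.1 FPKM) and choline kinase Chka (30.6, 32.96 and 31.2 FPKM) were lower. All 19 genes of this list were detected and none was set apart in any library.

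Type 1 cell genes were steadier than type 2 cell genes, with a median CV over the list of 7.79% against 17.3%. All 18 were detected and none was set apart. Below Ager came Cav1, the caveolin shared with endothelium, at 707, 714 and 618 FPKM. Emp2, a membrane protein also high in aerocyte capillaries, lay at 445, 445 and 531 FPKM and Hopx, a homeodomain protein of type 1 cells, at 455, 417 and 439 FPKM. Emp2 and Hopx overlapped. Vegfa, the growth factor that type 1 cells present to the capillary bed, stood at 290.03, 285 and 279.8 FPKM, and the water channel Aqp5 at 193, 167 and 160.2 FPKM. Pdpn, podoplanin, was among the steadiest at 59.8, 60.1 and 59.1 FPKM. Sftpc stood 14.5, 13.4 and 12.3 times as high as Ager.

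Airway secretory genes ran from even to widely spread between libraries, with a median CV over the list of 23.5%. Scgb1a1, Cbr2, Cyp2f2, Scgb3a2 and the retinaldehyde dehydrogenase Aldh1a1 each varied by less than 2-fold. Cyp2f2 was measured at 2098, 1864 and 1802 FPKM, Scgb3a2 at 2046, 1661 and 1266 FPKM and Aldh1a1 at 994, 816 and 845 FPKM. Scgb3a1, the secretoglobin of larger airways and nasal mucosa, stood at 1271, 169.5 and 7.29 FPKM. Library 1 was therefore 7.49-fold above library 2 on the FPKM + 0.1 scale, and library 3 lay 22.95-fold below library 2.

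Other mucosal defence genes followed the same order, library 1 highest and library 3 lowest. Bpifa1, a secreted antimicrobial and surface-active protein of upper airways, was found at 562, 62.3 and 2.35 FPKM, and its relative Bpifb1 at 64.03, 8.23 and 0.86 FPKM. Reg3g, an antibacterial lectin, lay at 86.2, 9.97 and 0.19 FPKM. Muc5b, the gel-forming mucin of airways, stood at 5.33, 1.7 and 0.19 FPKM, and Tff2, a trefoil peptide of mucous cells, at 15.98, 5.11 and 0.69 FPKM. Of the 18 secretory genes, 5 were higher in library 1 and 7 were lower in library 3. Of 8 goblet cell genes, 5 of them detected, 4 were higher in library 1 and the same number lower in library 3. The ratio of Scgb1a1 to Scgb3a1 FPKM was 97.1 in library 1, 718 in library 2 and 15105 in library 3.

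Retnla, a resistin-like protein of airway epithelium and macrophages, took another order, at 88.4, 197 and 33.4 FPKM, highest in library 2. Chil1, a chitinase-like protein, was measured at 252, 62.5 and 182 FPKM and was lower in library 2. Cyp2a5, a P450 of nasal mucosa and liver, stood at 138, 20.2 and 28.6 FPKM and was higher in library 1. How much proximal airway each library held was not tested.

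**Figure D3:**
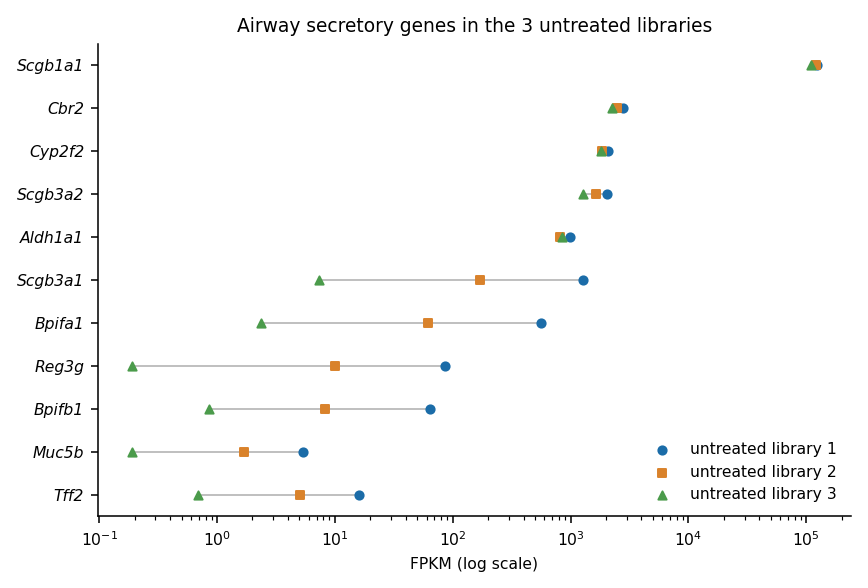
FPKM on a log axis of 11 airway secretory genes in the 3 untreated libraries, with a grey line from lowest to highest. Scgb1a1, Cbr2, Cyp2f2, Scgb3a2 and Aldh1a1 form tight groups, while Scgb3a1, Bpifa1, Reg3g, Bpifb1, Muc5b and Tff2 spread over factors of 10 and more in the order library 1, library 2, library 3.

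Ciliated cell genes were low, with a median CV over the list of 18.7%. In library 3 its detected genes lay at a median of 0.732 times the other libraries. The list median was 9.88, 9.48 and 8.04 FPKM, and none of its 21 genes was set apart. Tppp3, a tubulin-binding protein, led with 316, 347 and 239.8 FPKM, and Foxj1, the master factor of motile cilia, was found at 27.1, 23.2 and 31.7 FPKM. Dynlrb2, a dynein light chain, lay at 61, 50.4 and 29.1 FPKM, lowest in library 3. The axonemal heavy chain Dnah5 stood at 4.23, 4.03 and 2.58 FPKM. Only 1 of 9 basal cell genes reached a mean of 1 FPKM, the integrin Itga6 (12.8, 21.2 and 15.97 FPKM), which other cells share, and Krt15 was measured at 1.21, 0.19 and 0.11 FPKM. Of 10 neuroendocrine genes 5 were detected, led by synaptophysin Syp at 4.78, 3.28 and 3.52 FPKM.

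Pan-endothelial genes were high and even. All 22 pan-endothelial genes were detected at a mean of at least 10 FPKM, with none set apart. Ramp2, partner of the adrenomedullin receptor Calcrl, stood at 596, 505 and 525 FPKM and Calcrl at 264, 221 and 287 FPKM. Epas1, the hypoxia-inducible factor 2 alpha, was found at 506, 456 and 528 FPKM. Of the junction genes, Cldn5 lay at 284, 319 and 321 FPKM, Pecam1 at 279, 232 and 269 FPKM and Cdh5 at 212, 175 and 242 FPKM, with overlapping ranges between the last pair.

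Of the BMP receptor genes tied to pulmonary hypertension and hereditary telangiectasia, Eng stood at 219.8, 169.6 and 222 FPKM, Acvrl1 at 187, 155 and 192 FPKM and Bmpr2 at 105, 93.6 and 109.9 FPKM. Eng and Acvrl1 overlapped, and Bmpr2 lay below both. Endothelial specification factors were much lower per length, with Sox17 at 16.8, 19.7 and 21.8 FPKM and Erg at 12.7, 11.1 and 17.7 FPKM.

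General capillary markers had higher medians (92.6, 89.5 and 109 FPKM) than aerocyte markers (32.7, 37.7 and 46.6 FPKM), without overlap. Hpgd, which inactivates prostaglandins as blood passes the lung, was measured at 776, 667 and 693 FPKM, and Tspan7 at 470.3, 406 and 444 FPKM. Plvap, of fenestral diaphragms, stood at 351, 282 and 281 FPKM, and Gpihbp1, which carries lipoprotein lipase to the vessel wall, at 145, 132 and 127 FPKM. Among aerocyte genes, Car4, a membrane carbonic anhydrase that speeds carbon dioxide release, was found at 171, 132 and 164 FPKM and the VEGF receptor Kdr at 80.2, 76.6 and 108 FPKM. Apln, the apelin ligand of aerocytes, lay at 20.2, 19.8 and 31.5 FPKM and its receptor Aplnr, of general capillaries, at 39.6, 42.6 and 34.6 FPKM. Aplnr lay above Apln in every library, without overlap.

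Large-vessel and lymphatic lists had lower medians than the general capillary list. Mgp apart, arterial genes ran from Cxcl12 (83.5, 63.9 and 72.5 FPKM) through the gap junction gene Gja5 (28.2, 29.6 and 40 FPKM) to Bmx (6.79, 7.71 and 8.31 FPKM). Of venous genes Ephb4, the receptor for arterial Efnb2, stood at 40.7, 37.98 and 37.3 FPKM and Nr2f2, the venous fate factor, at 22.7, 21.99 and 22.3 FPKM. Selp, stored by platelets and venular endothelium, was measured at 0.8, 4.39 and 1.61 FPKM and was higher in library 2. The lymphatic chemokine Ccl21a stood at 227, 199 and 157 FPKM, Lyve1 at 103, 173 and 159.8 FPKM and the lymphatic fate factor Prox1 at 0.94, 1.15 and 1.07 FPKM.

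The lung converts angiotensin on its capillary wall. Ace, the converting enzyme, was found at 254, 227 and 317 FPKM. The receptor Agtr1a lay at 6.86, 7.25 and 8.76 FPKM and renin, Ren1, at 0.05, 0.1 and 0 FPKM. Agt, the precursor, and Kng1, kininogen, are liver products and stood at 1.27, 1.12 and 3.58 and 0.89, 1.22 and 11.9 FPKM. These were the 2 of 16 genes higher in library 3, the library with the high liver list.

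Of vasoactive genes, endothelin receptor Ednrb was measured at 32.9, 42.2 and 46.6 FPKM and Ednra at 25.96, 27.8 and 31.6 FPKM, a ratio of 1.27, 1.52 and 1.47. The ligand Edn1 stood at 22.1, 28.9 and 44.7 FPKM, highest in library 3, and its processing enzyme Ece1 at 104, 86.2 and 104 FPKM. Both soluble guanylate cyclase subunits, the nitric oxide receptor, were close to equal, Gucy1a1 at 55.6, 74.6 and 74.3 FPKM and Gucy1b1 at 59.7, 79.4 and 74.8 FPKM. Nos3, the endothelial nitric oxide synthase, was listed at 3.03, 3.65 and 2.77 FPKM, and Ptgis, prostacyclin synthase, at 48.2, 39.4 and 43.96 FPKM. None of the 28 genes of this list was set apart.

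Fibroblast genes were detected throughout, 14 of 14 alveolar and 15 of 15 adventitial, and none was set apart. The list medians overlapped, at 70.2, 61.4 and 78.2 and 73.3, 84.5 and 72.4 FPKM. Alveolar fibroblasts were marked by Npnt, nephronectin, at 192, 199.99 and 244 FPKM, its receptor Itga8 at 69.8, 66.03 and 83.3 FPKM, Pdgfra at 66.96, 55.4 and 73.1 FPKM and the lung mesenchyme factor Tcf21 at 59.4, 48.6 and 60.4 FPKM. Adventitial genes included Gsn, the actin-severing gelsolin, at 996, 1084 and 1203 FPKM, Dcn, decorin, at 105, 139 and 90.96 FPKM and Pi16 at 16.9, 14.2 and 11.3 FPKM. Dcn, Dpt and Lum were each highest in library 2, with Lum at 5.6, 11.3 and 5.86 FPKM.

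All 44 matrix genes were detected and none was set apart, with a list median of 32.5, 31.2 and 35.6 FPKM. Basement membrane Col4a1 and fibrillar Col3a1 were the highest collagens by mean, and their ranges overlapped. Col4a1 was found at 163, 161 and 189 FPKM and Col4a2, its partner in the same trimer, at 121, 117 and 145 FPKM. Their ratio was 1.35, 1.38 and 1.30, and the trimer they build holds more of the first chain. Col3a1 lay at 144, 169 and 167 FPKM, above Col1a2 at 73.3, 84.5 and 91.1 FPKM and Col1a1 at 39.5, 42.04 and 42.5 FPKM. Col1a1 thus stood at 0.54, 0.50 and 0.47 of Col1a2, while the type I collagen trimer holds more of the Col1a1 chain.

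Elastin, Eln, which gives lung its recoil, stood at 119.95, 117 and 113 FPKM, with its assembly factor Fbln5 at 55.9, 59.5 and 67.8 FPKM and the cross-linking enzyme Lox at 28.8, 28.6 and 25.1 FPKM. Mfap4, an elastic fibre protein, was measured at 544, 459 and 836 FPKM, highest in library 3. Fn1, fibronectin, stood at 50.3, 116 and 69.4 FPKM, highest in library 2. Col4a3 and Col4a4, chains of the alveolar basement membrane, were found at 44.4, 40.95 and 51.2 and 34.8, 28.3 and 33.1 FPKM.

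Smooth muscle genes overlapped at the top, Tagln at 89.5, 66.1 and 86.1 FPKM and Acta2 at 80.1, 67.2 and 88.7 FPKM, while Myh11, the defining myosin, lay at 19.5, 19.2 and 24.96 FPKM. Des, desmin, is shared with striated muscle and was highest in library 2, at 47.2, 88.8 and 48.2 FPKM. Pericyte genes included Cox4i2 at 82.3, 79.1 and 73.7 FPKM, Higd1b at 30.1, 32.4 and 28.9 FPKM and Pdgfrb at 22.7, 29.2 and 33.05 FPKM. Mesothelial genes of the pleura included Upk3b at 68.5, 77.9 and 62.05 FPKM and Msln, mesothelin, at 48.9, 66.8 and 45.7 FPKM, and both were highest in library 2.

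Among immune cells the macrophage lists had the highest medians, 20.1, 19.7 and 17.6 FPKM for interstitial macrophages and monocytes and 18.3, 17.8 and 14.8 FPKM for alveolar macrophages. Chil3, a chitinase-like protein of alveolar macrophages, stood at 323, 185 and 216 FPKM, and the eosinophil-type ribonucleases Ear2 and Ear1 at 137, 107 and 117 and 58.7, 54.5 and 48.8 FPKM. The defining lectin Siglecf was measured at 4.52, 3.57 and 3.37 FPKM and Marco, a scavenger receptor, at 8.7, 10.5 and 7.31 FPKM. Car4 and Krt19 of that list are shared with endothelium and epithelium. Fabp1, a fatty acid binding protein that liver also makes, stood at 22.8, 23.1 and 68.3 FPKM and was higher in library 3.

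Complement C1q chains of interstitial macrophages moved together, C1qa at 30.2, 50.7 and 31.4 FPKM, C1qb at 28.1, 40.3 and 28.9 FPKM and C1qc at 27.8, 44.7 and 28.2 FPKM, each highest in library 2. The same library was highest for Adgre1, the F4/80 antigen, at 25.2, 39.4 and 15.1 FPKM. Csf1r, the macrophage growth factor receptor, was found at 28, 32.3 and 37.3 FPKM, lowest in library 1. Nr4a1, needed by patrolling monocytes in mouse and also an immediate early gene, lay at 38.04, 51.9 and 115 FPKM and was higher in library 3.

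Neutrophil calprotectin genes, which bind calcium and zinc, were high, with S100a9 at 398, 204 and 228 FPKM and S100a8 at 183, 92.9 and 104 FPKM. Library 1 was highest for both, and their ratio held at 2.17, 2.20 and 2.18, a CV of 0.553%. Granule genes of immature neutrophils differed more, with Ngp at 10.3, 1.87 and 0.82 FPKM and Camp, cathelicidin, at 4.78, 1.87 and 0.39 FPKM. Ltf, lactoferrin, which airway glands also make, stood at 19.97, 2.15 and 1.03 FPKM. Of 17 neutrophil genes, 4 were higher in library 1 and 3 lower in library 3.

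B cell genes were lowest in library 1 for every one of the 16 genes of the list, and 6 met the 2-fold rule. Cd79a, a chain of the antigen receptor, was measured at 22.6, 45.8 and 42.3 FPKM and its partner Cd79b at 14.6, 33.4 and 25.6 FPKM. Ms4a1, CD20, stood at 6.68, 20.2 and 13.9 FPKM, and Cxcr5, the follicle homing receptor, at 2.59, 7.76 and 6.51 FPKM. Library 1 lay below libraries 2 and 3, which were closer to each other. None of the 8 plasma cell genes met the rule, and Jchain, the joining chain of secreted antibody, was found at 18.5, 16.8 and 24.2 FPKM, lowest in library 2.

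T cell and natural killer genes were highest in library 3 for most members. Cd3e, of the T cell receptor complex, lay at 3.02, 3.65 and 4.2 FPKM, Il7r at 3.85, 5.19 and 6.91 FPKM and the killer receptor gene Ncr1 at 4.88, 3.9 and 6.18 FPKM. Gzma, a granule protease, stood at 29.1, 29.9 and 40.3 FPKM and the chemokine Ccl5 at 31.2, 36.5 and 56.3 FPKM. Of 16 T cell genes and 12 killer cell genes in the table, 1 each met the 2-fold rule, both higher in library 3. Mast cell genes were at the edge of detection, 3 of 8 detected, with Cpa3, mast cell carboxypeptidase, at 0.66, 2.9 and 0.77 FPKM and higher in library 2.

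Dendritic cell genes were low, with a list median of 4.16, 4.23 and 3 FPKM, and none of 13 was set apart. Bst2, tetherin, led at 118, 73.7 and 88.2 FPKM but is also interferon-stimulated, and Irf8, the factor that dendritic cells and monocytes need, was measured at 15.3, 17.3 and 17.01 FPKM. Ccr7, the receptor that guides migration to lymph nodes, stood at 6.84, 10.1 and 11.96 FPKM, lowest in library 1, as the B cell genes were. Clec9a, of cross-presenting cells, was found at 4.88, 4.23 and 6.1 FPKM and Siglech, of plasmacytoid cells, at 1.69, 2.6 and 1.87 FPKM. Type 2 innate lymphoid markers were near the limit, with a list median of 0.92, 1.56 and 1.07 FPKM. Gata3, their fate factor, lay at 6.45, 5.18 and 4.26 FPKM, and Areg, the repair factor amphiregulin, at 4.51, 6.46 and 9.66 FPKM.

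Several antigen presentation genes were high. Cd74, the class II invariant chain, stood at 657, 771 and 813 FPKM, H2-Aa at 309, 393 and 401 FPKM and H2-Ab1 at 203, 231 and 229 FPKM. B2m, the class I light chain, was measured at 1212, 1068 and 1179 FPKM. Other genes of the same pathway were listed near 0, Tapbp, tapasin, at 0.06, 0.22 and 0.1 FPKM, Tap1, the peptide transporter, at 0, 0.24 and 1.54 FPKM and Psmb8, an immunoproteasome subunit, at 1.65, 0.72 and 0.08 FPKM. Rps18, which every cell uses, was also listed near 0 in these libraries, so a low listing is not evidence that a gene was silent, and how reads of these genes were assigned was not tested. H2-Eb1 stood at 0.1, 0.1 and 16.3 FPKM and the pseudogene H2-Ea-ps at 3.61, 5.27 and 97.1 FPKM and both were higher in library 3. In mice both I-E loci vary between haplotypes, and whether the libraries differ in haplotype was not tested.

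Haemoglobin genes shared an order between libraries. Hba-a1, Hbb-b1, Hbb-b2 and Hba-a2 were each lowest in library 1 and highest in library 2, and the Hba-a1 to Hbb-b1 ratio was 1.94, 1.77 and 1.95. Alas2, the haem synthesis enzyme of red cells, had the same order at 75.9, 169.8 and 119 FPKM. Not every gene of the red cell list did, as Slc4a1, the band 3 anion exchanger, stood at 2.43, 2.82 and 2.12 FPKM, lowest in library 3. Of platelet genes, Pf4, platelet factor 4, lay at 21.9, 23.3 and 15.9 FPKM and Itga2b, the fibrinogen receptor chain, at 3.57, 2.41 and 2.23 FPKM. The amount of blood left in each lung was not tested.

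Skeletal muscle genes were higher in library 2. Acta1, skeletal actin, stood at 0.41, 555 and 46.5 FPKM, fast troponin Tnnt3 at 1.97, 504 and 38.98 FPKM and muscle creatine kinase Ckm at 12.4, 297 and 24.5 FPKM. Libraries 1, 2 and 3 gave summed FPKM over the 21 genes of 178, 3624 and 302, so library 3 lay between the others by sum. Mb, Cox6a2, Eno3 and Pgam2 were instead lowest in library 3, with Mb, myoglobin, at 68.8, 487 and 36.55 FPKM. All 21 were higher in library 2 and 14 were lower in library 1. Some genes of oxidative metabolism that muscle also uses were highest in library 2, the mitochondrial carrier of electrons Cycs at 33.2, 66.8 and 27.4 FPKM, Pdk4, which restrains glucose oxidation, at 3.68, 18.6 and 4 FPKM and Cox8b at 20.4, 82.95 and 7.7 FPKM. Cycs and Cox8b were lowest in library 3, where the skeletal muscle sum was lowest in library 1.

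Heart muscle genes had another order. Myl7, the atrial myosin light chain, was measured at 129, 61.9 and 12.7 FPKM, Myl4, also atrial, at 151, 79.8 and 13.9 FPKM, and the heart troponin Tnni3 at 86.9, 41.6 and 6.01 FPKM. For these 3, library 1 was highest and library 3 lowest. The list median was instead highest in library 2, at 19.8, 36.2 and 5.3 FPKM, as was Myh7 at 20.5, 30.8 and 10.96 FPKM. In mice a sleeve of heart muscle surrounds the pulmonary veins. Myl2, of ventricle and slow skeletal muscle, stood at 0.25, 64.03 and 4.11 FPKM, the order of the skeletal list. Of 16 heart genes, 10 were lower in library 3 and 3 higher in library 1, and 3 were higher in library 2.

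Liver genes were higher in library 3. Alb, albumin, was found at 19.7, 28.5 and 359 FPKM, Apoa1, the main protein of HDL, at 6.58, 12.1 and 71.3 FPKM and fibrinogen chains Fga and Fgb at 1.31, 1.45 and 20.5 and 2.04, 2.32 and 31.3 FPKM. Library 3 lay above the other 2 in each of these 4. The ratio of Fgb to Fga was 1.56, 1.6 and 1.53, a CV of 2.31%. White fat genes were mixed, and of 14 listed 3 were higher in library 1, 4 lower in library 3, 1 higher in library 2 and 1 higher in library 3. Adipoq, adiponectin, was at 2.81, 0.73 and 0 FPKM and Cfd, adipsin, at 30.1, 9.07 and 0.91 FPKM, while Pck1, a gluconeogenic enzyme that liver also makes, was at 1.04, 0.52 and 9.42 FPKM and Plin4, of lipid droplets, at 1.79, 4.36 and 1.21 FPKM. The 0 for Adipoq allows up to 0.179 CPM in library 3.

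Markers of other tissues next to the lung were low in all 3 libraries. None of 14 cartilage genes reached a mean of 1 FPKM, and 3 of 11 thymus genes did, each shared with other cells. Of 10 genes of squamous epithelium, such as oesophagus, 2 were detected, led by Sbsn, suprabasin, at 10.2, 11.6 and 9.98 FPKM. Of 7 thyroid and parathyroid genes 1 was detected, the iodotyrosine deiodinase Iyd, at 5.22, 7.82 and 6.82 FPKM. Nerve was represented by Mbp, myelin basic protein, at 13.9, 13.6 and 12.2 FPKM, while Pmp22, at 362, 335 and 347 FPKM, is shared with endothelium and epithelium. Fabp4, a fatty acid binding protein of fat and capillaries, lay at 50.2, 50.8 and 16.4 FPKM and was lower in library 3, and Cox7a1, of muscle and brown fat mitochondria, stood at 50.9, 108 and 16.3 FPKM, highest in library 2.

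**Figure D4:**
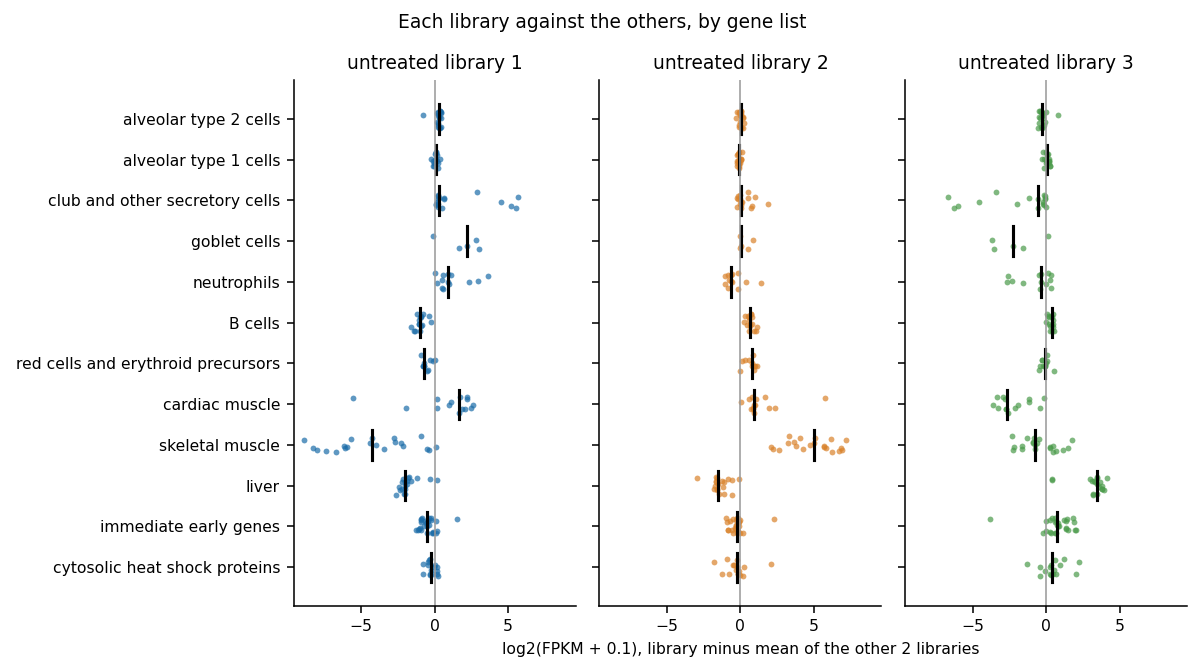
For 12 gene lists, log2(FPKM + 0.1) of each detected gene in 1 untreated library minus the mean of the other 2, one panel per library; points are genes and the black bar is the list's median. Skeletal muscle genes sit to the right in library 2 and liver genes in library 3, while type 1 and type 2 cell genes stay near 0 in all 3 panels.

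Library 3 was also higher for immediate early genes, which switch on within minutes of handling or injury, 10 of 28 of them. Egr1 was measured at 24.3, 24.3 and 89.8 FPKM, Fos at 29.9, 43.1 and 91.5 FPKM, Cyr61 (matricellular) at 94.2, 89.98 and 238 FPKM and Atf3 at 6.8, 8.54 and 20.9 FPKM. Libraries 1 and 2 were close for Egr1 and Cyr61. Ier3 was instead lower in library 3, at 42.2, 59.7 and 3.52 FPKM. Genes near it on chromosome 17 that are not immediate early genes were lower there too, Flot1 at 18.4, 15.4 and 2.87 FPKM, Tubb5 at 54.6, 54.4 and 9.58 FPKM, Ppp1r10 at 8.74, 8.74 and 1.32 FPKM and Abcf1 at 13.1, 14.5 and 1.97 FPKM. Of inducible heat shock genes, Hspa1a stood at 6.19, 4.99 and 23.2 FPKM and Dnajb1 at 52.3, 40.03 and 108 FPKM, and 3 of 16 genes of the heat shock list were higher in library 3. The constitutive Hspa8 stood at 675, 722 and 945 FPKM. The role of time to tissue harvest was not tested.

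Transport genes of the alveolar wall were steady, 27 listed, 24 detected and none set apart. The epithelial sodium channel subunits, which clear fluid from alveoli, were found at 108, 105 and 123 FPKM for Scnn1a, 61.1, 50.05 and 55.7 FPKM for Scnn1b and 63.8, 55.8 and 65.4 FPKM for Scnn1g. Scnn1a was 1.77, 2.09 and 2.20 times Scnn1b, and the other 2 overlapped. Aqp1, of endothelium, lay at 308, 296 and 296 FPKM, above Aqp5, without overlap. Cftr, the chloride channel mutated in cystic fibrosis, was low, at 5.88, 5.79 and 4.7 FPKM.

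Enzymes that handle inhaled and oxidised compounds were abundant. All 34 listed xenobiotic genes were detected and 15 had a mean of at least 100 FPKM. After Cbr2, Cyp2f2 and Aldh1a1 came Gstm1, a glutathione transferase, at 534, 411 and 466 FPKM and Fmo2, the flavin monooxygenase of lung, at 422, 359 and 477 FPKM. Cyp1a1, induced by aromatic hydrocarbons, stood at 13.96, 8.29 and 20.7 FPKM, lowest in library 2. Of antioxidant genes, Gpx3, the secreted glutathione peroxidase, was measured at 934, 626 and 884 FPKM, Sod1 at 621, 544 and 559.8 FPKM, Prdx6, which also serves surfactant lipid turnover, at 490.5, 414 and 442 FPKM and extracellular Sod3 at 214, 173 and 222 FPKM. The inducible Hmox1 stood at 23.9, 22.9 and 31.2 FPKM and Nqo1 at 5.22, 6.87 and 7.96 FPKM.

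Among lung transcription factors below Hopx, Foxf1, of lung mesenchyme and endothelium, was found at 106, 136 and 128 FPKM and above Nkx2-1 without overlap. The foregut factors Foxa2 and Foxa1 lay at 25.5, 26.7 and 22.2 and 16.4, 13.2 and 14.8 FPKM, Gata6 at 17.9, 17.1 and 17.1 FPKM and the airway factor Sox2 at 9.95, 7.7 and 5.38 FPKM, lowest in library 3. Of 24 listed, 23 were detected and none was set apart, and the list median was 20.6, 20.1 and 19.2 FPKM.

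Cell division genes were near the detection limit, with a list median of 1.74, 1.93 and 1.85 FPKM, 24 of 30 detected and 1 at 10 FPKM or more, the replication clamp Pcna at 45.6, 54.5 and 51.3 FPKM. The kinase Cdk1 stood at 1.06, 1.45 and 1.27 FPKM. Interferon-stimulated genes had a list median of 12.3, 10.3 and 12.2 FPKM, led by Oasl2 at 108, 137 and 147 FPKM and Ifi27l2a at 149, 102 and 115 FPKM. Isg15, a ubiquitin-like modifier, was measured at 16.98, 11.8 and 17.1 FPKM. Clock genes were even, Arntl, the core activator, at 19.7, 18.2 and 19.1 FPKM and Clock at 15.1, 15.5 and 15.96 FPKM, while Per1, which is also induced by stress, stood at 13.7, 11.9 and 23.9 FPKM, highest in library 3.

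Of 16 genes of the glucocorticoid and metallothionein list, 1 met the 2-fold rule, Pdk4, given above, which was higher in library 2. Nr3c1, the receptor itself, was found at 42.97, 43.4 and 43.3 FPKM, and its target Tsc22d3 at 104, 113 and 151 FPKM. Sgk1, a kinase that raises sodium uptake, lay at 78.02, 81.5 and 97.2 FPKM, and Dusp1, a phosphatase also in the immediate early list, at 182, 196 and 288 FPKM. These 3 targets, the highest of the list, were each at their highest in library 3, by less than 2-fold. Other targets were not, as Klf9, a transcription factor, at 39.8, 33.98 and 33.8 FPKM and Fkbp5, a chaperone partner of the receptor, at 3.4, 3.45 and 3.18 FPKM. The metal-binding metallothioneins stood at 76.8, 66.7 and 67.1 FPKM for Mt1 and 30.5, 49.1 and 30.4 FPKM for Mt2.

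Ribosomal protein genes had a list median of 424, 455 and 417 FPKM, and 77 of 78 were detected. Rps27 stood highest at 1553, 1470.03 and 1459 FPKM. Rps7 was the single member set apart, at 139, 381 and 152 FPKM. Nuclear genes of the respiratory chain had a median of 99.5, 113 and 84.9 FPKM, highest in library 2 and lowest in library 3, with cytochrome oxidase subunit Cox6c at 310.3, 375 and 259.8 FPKM and ATP synthase subunit Atp5b at 288, 365 and 259 FPKM. None of the 26 listed genes of the mitochondrial genome was in the table, so no mitochondrial share is given here.

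Spread between libraries was measured as the coefficient of variation (CV), the SD over the 3 FPKM divided by their mean. Over the 13851 detected genes the median CV was 8.78%, with quartiles at 5.11% and 15.0%, while counting error alone gave a median of 4.47%. A CV under 10% was seen in 7837 genes and over 100% in 242. The median CV was 19.9% for genes between 1 and 2 FPKM, 6.89% between 10 and 50 FPKM, and 9.49% for the 27 genes at 1000 FPKM or more. The last value exceeded the 0.579% of counting error by the widest factor of the 7 classes.

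**Figure D5:**
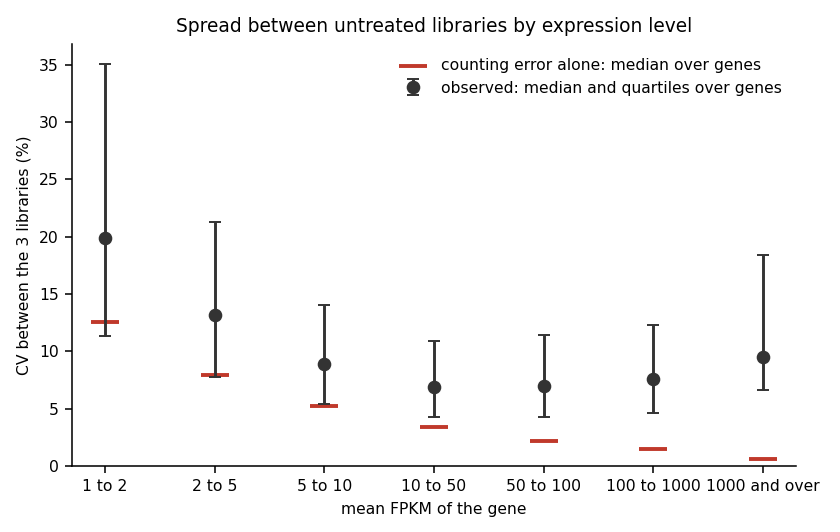
CV between the 3 untreated libraries against mean FPKM in 7 classes; points are medians over genes, bars run from the lower to the upper quartile, and red marks show the median CV that counting error alone would give. The observed median falls from 19.9% at 1 to 2 FPKM to 6.89% at 10 to 50 FPKM and does not fall further, while counting error keeps falling.

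The steadiest genes with a mean of at least 50 FPKM were not lung products. Mbd2, which binds methylated DNA, had a CV of 0.19% at 92.9, 92.8 and 93.1 FPKM, and P4hb, a protein disulfide isomerase, a CV of 0.3% at 194, 194 and 193 FPKM. Slc25a5, the ADP/ATP carrier of mitochondria, Grn, progranulin, Thra, a thyroid hormone receptor, and Cdc37, a kinase co-chaperone, followed. Psap, prosaposin, and Lamp1, both of the lysosome, were measured at 385, 384 and 387 and 399, 396 and 399 FPKM. Rnf181 and Cd47 closed the 10, with a CV of 0.61% for Cd47, the "do not eat me" signal of cells. These are the extremes of 3 values each and would differ in other libraries.

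Pairs of libraries differed by at least 2-fold in 439 genes (3.17%) for 1 and 2, in 549 (3.96%) for 1 and 3, and in 601 (4.34%) for 2 and 3. Across genes, log2 FPKM of pairs had Pearson coefficients of 0.951, 0.949 and 0.945. Genes are not independent replicates, and these describe the libraries. No pair was identical, and counts of each pair were further apart than counting error allows (chi-square divided by degrees of freedom, 21.5 to 29.8). The common biological CV estimated by edgeR over 14336 genes was 0.188.

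Of detected genes, 591 (4.27%) were set apart by at least 1 library, 137 of them both as higher in 1 library and lower in another. Library 2 was higher for 206 genes and lower for 39, library 3 higher for 173 and lower for 131, and library 1 higher for 62 and lower for 117. Of the 206 genes higher in library 2, 21 were those of the skeletal muscle list. Among genes with a symbol and a mean of at least 5 FPKM, the furthest above in library 2 were the calcium buffer Pvalb (0.09, 46.1 and 2.03 FPKM) and the myosin Myh2 (0.02, 79.4 and 4.85 FPKM), followed by Myl2, Gdpd3, Myot and the myosin Myh1 (0.05, 147 and 10.1 FPKM), and 3 entries known by provider number alone were among the 10 furthest. Serpina1d, a protease inhibitor of liver, stood at 9.23, 9.95 and 152 FPKM and was among the 10 furthest above in library 3, as was Mup20, a urinary protein, at 4.02, 1.73 and 48.5 FPKM. Mup7, of the same family, whose members are near copies of each other, was found at 11.7, 3.84 and 51.95 FPKM.

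In library 1 the genes furthest above the others were Bpifa1, Ltf and Reg3g, followed among others by Cyp4a12b, a fatty acid hydroxylase, at 14.6, 1.81 and 0.54 FPKM, and Itln1, a lectin that binds microbial sugars, at 15.9, 2.58 and 0.72 FPKM. Tmem221, a membrane protein, lay at 14.6, 3.51 and 1.61 FPKM. The genes furthest below in library 1 included several of muscle, as Apobec2, a muscle deaminase, at 0, 15.5 and 3.27 FPKM, Myot, myotilin of the Z disc, at 0, 38.4 and 2.48 FPKM and Mybpc1, slow myosin binding protein, at 0.02, 39.3 and 2.98 FPKM. Reg3g, Bpifa1, Scgb3a1 and Bpifb1 were among the 10 furthest below in library 3, with Sln, sarcolipin of atrium and slow muscle, at 61.8, 59.5 and 5.81 FPKM and Myoz2, calsarcin of the Z disc, at 16.4, 20.3 and 1.41 FPKM.

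Some genes set apart were in none of the lists. Gm1987, a predicted gene, was listed at 0, 30.3 and 29.3 FPKM, and Gm35187 at 8.84, 9.15 and 0 FPKM, each present in 2 libraries and at 0 in the other. Baiap2l1, an actin-membrane adaptor, stood at 69.99, 21.6 and 111 FPKM, lower in library 2, and Psmc3ip, a recombination cofactor, at 17.5, 5.32 and 16.5 FPKM. Of genes set apart, 376 had a promoter window, and 32 of these (8.51%) held TATAAA in the core position. The share was 1.41% in detected genes, from which they were drawn, and 2.17% in all matched genes. The median number of CG per window was 5 in the genes set apart, 20 in detected genes and 17 in all matched genes.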

How the data were processed

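RNA-seq was done on total RNA of lung, per the labels' protocols, and, per the submitters' processing notes, with genome build mm10. For aligner, counting program and strandedness, nothing is given in the sources used here. The authors deposited 1 table of 19726 genes with estimated counts per library (76.3 to 76.4% whole numbers) and normalised values whose unit, FPKM, was inferred, since count divided by library total and by 1 length per gene gave the deposited value (CV of the implied length 0.483%). Of its columns, 26 of per-sample or mean values were not used. The 3 untreated libraries were taken by title.

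From these, means, SDs, CVs and ranks were computed, and a gene was called set apart at 2-fold beyond the nearer other library on the FPKM + 0.1 scale, with a mean FPKM of at least 1. With 1 group there is no comparison between groups and no p-value. Estimated counts were rounded for edgeR 4.0.16 (TMM factors 0.996 to 1.01, biological CV) and DESeq2 1.42.0 size factors (0.986 to 1.02), in R 4.3.3. The calculation was tested on simulated data. Python 3.11.15, numpy 2.4.6, pandas 2.3.3, scipy 1.17.1 and matplotlib 3.10.9 were used. Limits for a count of 0 (3 counts) and counting CVs cover counting error only.

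The 65 gene lists (1034 of 1088 symbols in the table) and the members were chosen with earlier results of these data known. Genes are named by rule: the 50 highest by mean FPKM, list members in order of FPKM, the 10 furthest above and below per library at a mean of at least 5 FPKM, and the 10 lowest CVs at 50 FPKM or more; of these, provider IDs and some others are counted and not named. Pdzd8, Naaladl2, Flot1, Tubb5, Ppp1r10 and Abcf1 fall outside the rule and were chosen after their values were seen. Positions and promoters are from RefSeq GRCm38.p6 and transcript lengths from GENCODE M21. Alternatives were other scalings, filters, pseudocounts, folds and leaving out each library.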

Additional observations from a re-analysis of the deposited data

How the results depend on the processing

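No paired analysis was possible because only 1 group was described and no test was made. Ranked by CPM without length, 23 of the top 50 genes were shared with the FPKM ranking, and counts in place of FPKM moved the share of the top 50 from 38.4% to 14.9%. With the longest GENCODE transcript as length, an alternative chosen after seeing the data, 35 were shared. Leaving out 1 library gave 48 to 50 shared genes, 13745 to 13853 genes detected and a share of 37.7 to 39.1%. It also gave 353 to 363 pairs of lists in 1 order and a median CV of 6.35 to 7.86%, lowest without library 3. A median CV runs lower over fewer libraries, and the number of pairs in 1 order can only stay or rise. Both ranges therefore partly follow from the smaller number of libraries.

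The median CV of 8.78% became 12.0% with no filter, 7.45% and 6.98% at a mean FPKM of at least 5 and 10, and 9.72% on TPM, and stayed at 8.63 to 9.13% under TMM, DESeq2 and totals without Scgb1a1 and haemoglobins. TPM moved the median of all genes by -0.09 in library 2 and 0.08 in library 3 (log2). The count of genes set apart, 591, became 1230 at 1.5-fold and 389 at 3-fold, 1683 with no filter and 218 at a mean FPKM of at least 5. It was 448 to 616 under the other pseudocounts, scalings and a 10-count minimum, and 567 to 577 of the 591 were shared under TPM, TMM, DESeq2 and the adjusted totals. Skeletal muscle kept 21 genes higher in library 2 and liver 17 in library 3 under these 4 scalings. Leaving out a library could not be run for genes set apart, which need 3. Genes detected ran from 10153 at 5 FPKM to 16730 at 0.1 FPKM. Depth limits genes near 1 FPKM, where counting error alone gave a CV of 12.6%. With 3 libraries, SDs are imprecise.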
